A study of Camellia reticulata with 27 samples.

Results

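The 3 transcripts named dihydroflavonol reductase (DFR) in petals of Camellia reticulata were followed across all 9 groups of an RNA-seq series. They were chosen by name: a supplementary table of the study pairs these 3 of the 225938 assembled transcripts with the function DFR, and all 3 carry the same cluster number, as Cluster-90241.3, Cluster-90241.5 and Cluster-90241.6. That table lists an enzyme transcript where its level followed a transcription factor in these same samples, so a pattern shared with those factors is not independent evidence. No sequence or other annotation was used here to check the name.

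The samples were petals of 3 cultivars, Tongzimian (TZM), which has white flowers, Shizitou (SZT), which has red flowers, and Manao (MN, named Damanao in the study's text), a bud variant of SZT whose petals mix white and red. Petals of TZM and of SZT were taken at bud and at full bloom. MN was sampled at bud stage 1 (early bud), bud stage 3 (late bud), the initial flowering stage and the full-bloom stage, when its white region and its red region were taken apart. Each of the 9 groups had 3 libraries, 27 in all, and the labels do not say whether these came from separate plants, so p-values measure the spread between these samples, which may be technical.

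DFR is an enzyme of the late part of the anthocyanin pathway. Chalcone synthase (CHS) makes the first flavonoid intermediate, flavanone 3-hydroxylase (F3H) leads to dihydroflavonols, DFR reduces dihydroflavonols to leucoanthocyanidins, and anthocyanidin synthase (ANS) turns these into the coloured anthocyanidins. Anthocyanidin reductase (ANR) takes anthocyanidins away from pigment towards flavan-3-ols, the units of proanthocyanidins. In red and purple petals, DFR is one of the steps on which pigment formation depends.

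Levels are given in FPKM as deposited, the fragments mapped to each kilobase of a transcript scaled to the size of the library. A transcript was tested where its mean was at least 5 FPKM in at least 1 group, and differences were tested with limma on log2(FPKM + 1) with p-values adjusted over the 55104 features of each comparison (55099 transcripts and the summed FPKM of 5 enzymes) and a call at an adjusted p under 0.05. All 3 DFR transcripts passed this filter, but Cluster-90241.6 passed it only through MN at bud stage 3. The filter thus favoured differences of this transcript from that group, and these are no separate support. With 1 added to each FPKM before logs, the change of low transcripts is understated. The samples were bulk petals, in which fewer cells of a type and less RNA per cell cannot be told apart.

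Summed FPKM per library ran from 1117467 to 1320744, and 126900 to 148030 transcripts were above 0. The read depth behind the values is unknown, so no counting interval is given. The 27 pairs of libraries of the same group correlated at r between 0.81 and 0.90 on log2(FPKM + 1), and 3 libraries were closer on average to another group than to their own. These were replicates 1 and 3 of MN's white region, closer to MN's red region, and replicate 3 of the SZT bud. The SZT bud library bears most on DFR. Its summed DFR level was 145 FPKM against 1019 and 833 FPKM in the other SZT bud libraries, and its sums of CHS (3906 against 8275 and 9482 FPKM), F3H (1212 against 2008 and 2668 FPKM) and ANS (571 against 1893 and 2323 FPKM) were low as well. Its mean correlation was 0.829 both with its own replicates and with MN at bud stage 1. Values without it are given where leaving it out moved a call or a value by much, a choice made after the values were seen.

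Cluster-90241.3 carried nearly all of the DFR signal, with 94.0% to 100% of the summed DFR FPKM in every library. In MN at bud stage 1 it stood at 523, 388 and 320 FPKM, and at bud stage 3 at 1305, 1799 and 1343 FPKM. At initial flowering the 3 MN libraries held 145, 104 and 125 FPKM. All bud stage 3 libraries lay above all bud stage 1 libraries, and these in turn lay above all libraries of the initial flowering stage.

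At full bloom, the white region of MN had 71.3, 67.5 and 68.5 FPKM of Cluster-90241.3 and the red region 76.6, 66.5 and 84.4 FPKM, and both regions overlapped. SZT had 978, 808 and 137 FPKM at the bud stage and 43.2, 47.5 and 44.6 FPKM at full bloom. TZM had 512, 518 and 447 FPKM at the bud stage and 13.4, 6.53 and 7.67 FPKM at full bloom. The full-bloom petals of TZM were thus the lowest of all libraries, and the late buds of MN the highest. Ranked among all transcripts of its library by FPKM, Cluster-90241.3 ran from rank 25, in a late bud of MN, to rank 22367, in a full-bloom library of TZM, with a median rank of 1351.

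**Figure D1:**
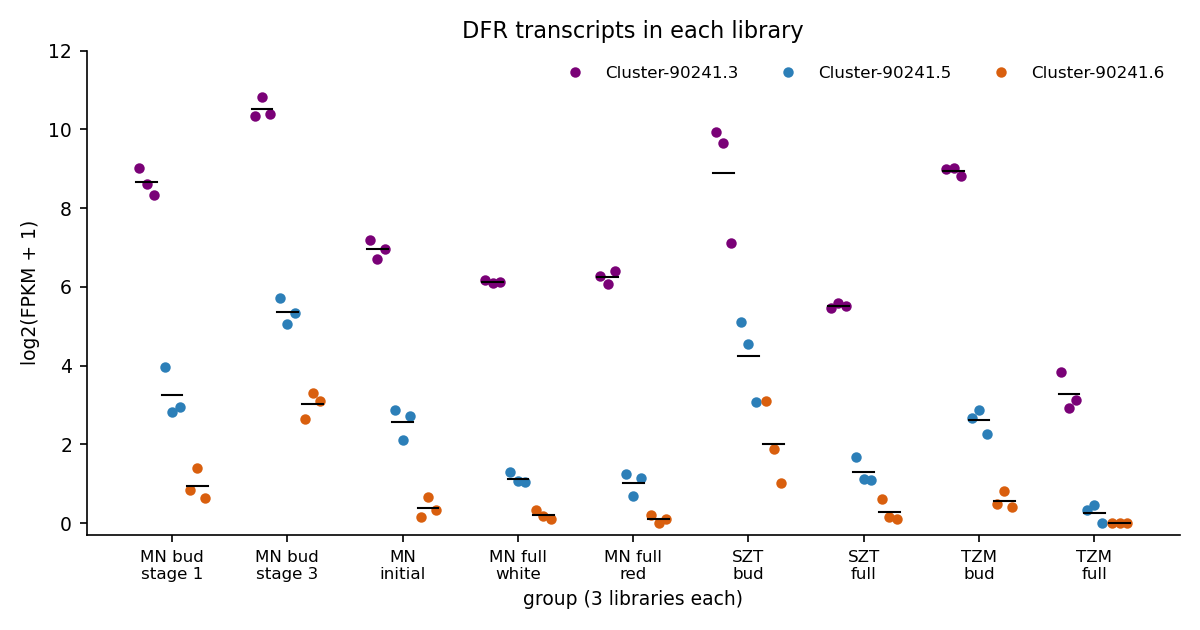
Level of the 3 DFR transcripts as log2(FPKM + 1) by group, with 1 point per library and a line at the mean of 3 libraries. Cluster-90241.3 lies above the others in every group, peaks in MN at bud stage 3 (1305 to 1799 FPKM) and is lowest in TZM at full bloom (6.53 to 13.4 FPKM), and 1 SZT bud library (137 FPKM) sits far below the other 2.

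Cluster-90241.5 was a minor transcript with the same highest and lowest groups. It stood at 51.4, 32.2 and 39.4 FPKM in MN at bud stage 3, and at 14.5, 6.06 and 6.75 FPKM at bud stage 1. In SZT buds it had 33.3, 22.6 and 7.43 FPKM, and in TZM buds 5.36, 6.39 and 3.83 FPKM. The TZM buds did not overlap with the SZT buds for this transcript, although they did for Cluster-90241.3. The initial flowering stage of MN had 6.36, 3.33 and 5.59 FPKM, MN's white region 1.44, 1.09 and 1.07 FPKM, MN's red region 1.36, 0.62 and 1.23 FPKM, SZT at full bloom 2.21, 1.16 and 1.15 FPKM, and TZM at full bloom 0.27, 0.37 and 0 FPKM. Only the TZM libraries were below 0.5 FPKM at full bloom.

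Cluster-90241.6 was scarcely present outside the buds. It reached 5.23, 8.89 and 7.59 FPKM in MN at bud stage 3 and 7.6, 2.69 and 1.03 FPKM in SZT buds, against 0.39, 0.76 and 0.34 FPKM in TZM buds and 0.78, 1.64 and 0.55 FPKM in MN at bud stage 1. At initial flowering and full bloom it lay between 0 and 0.59 FPKM in every library, and it was listed at 0 in all 3 full-bloom libraries of TZM and in 1 of MN's red region. Reads from transcripts under the same cluster number can be shared between them, so the levels of the 2 minor transcripts are less certain than the sum.

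Summed over the 3 transcripts, DFR stood at 1531 ± 269 FPKM (SD, n = 3) in MN at bud stage 3, 666 ± 460 in SZT buds, 498 ± 41.1 in TZM buds, 420 ± 108 in MN at bud stage 1 and 130 ± 22.0 in MN at initial flowering. At full bloom it stood at 77.0 ± 9.32 in MN's red region, 70.4 ± 2.24 in MN's white region, 46.8 ± 1.70 in SZT and 9.41 ± 3.70 in TZM. In this order, 3 of the 8 neighbouring pairs differed by limma: MN bud stage 3 from the SZT bud (log2 difference 1.60, adjusted p = 0.0446), MN bud stage 1 from initial flowering (1.67, adjusted p = 0.00466) and SZT from TZM at full bloom (2.26, adjusted p = 0.000315). When single libraries were left out, 2 to 4 of the 8 pairs differed. The SZT bud, the TZM bud and MN at bud stage 1 overlapped and did not differ beyond their spread, with neighbouring log2 differences of 0.00 (adjusted p = 1) and 0.27 (adjusted p = 0.692). The libraries of the initial flowering stage, MN's red region, MN's white region and SZT at full bloom fell in that order with adjusted p of 0.230, 1 and 0.468 between neighbours, and only the 2 regions of MN overlapped.

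The first question was how DFR moved as the flower of MN opened. DFR rose 3.64-fold in mean FPKM from bud stage 1 to bud stage 3, a difference of 1.88 on the log2 scale by limma (SE 0.44, adjusted p = 0.0191). Of all features, 3.97% were called in that comparison, and Cluster-90241.3 (1.87, adjusted p = 0.0208) and Cluster-90241.5 (2.12, adjusted p = 0.00358) were among them. Cluster-90241.6 gave 2.06 (adjusted p = 0.00247), but bud stage 3 is the group through which it passed the filter. With a pseudocount of 0.01, or on the libraries of both groups alone, neither Cluster-90241.5 (adjusted p = 0.196 and 0.0617) nor Cluster-90241.6 (adjusted p = 0.137 and 0.0983) was called. The rise of the sum was no longer called without replicate 3 of bud stage 1 (adjusted p = 0.0769) or without replicate 2 of bud stage 3 (adjusted p = 0.0838), and that of Cluster-90241.3 was lost without either of these or replicate 2 of bud stage 1 (adjusted p = 0.0526 to 0.0911). Without replicate 3 of the SZT bud, which is in neither group, the SE of the sum was 0.21. The limma adjusted p was then 2.00e-05 for the sum and 2.39e-05 for Cluster-90241.3.

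Between bud stage 3 and initial flowering, the mean FPKM of DFR dropped 11.8-fold, by limma a log2 value of -3.55 (SE 0.44, adjusted p = 1.86e-06). Cluster-90241.3 and Cluster-90241.5 fell, with log2 differences of -3.56 and -2.80 (adjusted p = 2.05e-06 and 7.37e-06), and Cluster-90241.6, which passed the filter through bud stage 3, gave -2.64 (adjusted p = 5.78e-06), in a comparison in which 36.8% of features were called. The median log2 difference over all features was -0.01.

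From the initial flowering stage to full bloom the sum did not pass the threshold in the red region (log2 difference -0.74, 95% interval -1.66 to 0.18, adjusted p = 0.230) or the white region (-0.86, -1.78 to 0.06, adjusted p = 0.150), where 30.2% and 32.1% of features were called and the median log2 difference over all features was -0.16 and -0.18. The means were 1.69-fold and 1.85-fold lower, and no library of either region overlapped with the initial flowering stage. The minor Cluster-90241.5 did fall, with log2 differences of -1.54 towards the red region (adjusted p = 0.00439) and -1.44 towards the white region (adjusted p = 0.00672), although neither was called with a pseudocount of 0.01 (adjusted p = 0.0672 and 0.0961). The wide interval of the sum was tied to the SZT bud library described above, since all groups shared an estimate of the spread: without it the SE of the sum was 0.21 in place of 0.44, and the same differences were called (adjusted p = 0.00922 for the red region and 0.00288 for the white).

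The next question was the change from bud to full bloom in the red and the white cultivar. In SZT, DFR fell 14.2-fold in mean FPKM (log2 value of -3.38, SE 0.44, limma adjusted p = 1.80e-06), and Cluster-90241.3, Cluster-90241.5 and Cluster-90241.6 fell, with log2 values of -3.38, -2.95 and -1.72 (adjusted p = 2.15e-06, 2.12e-06 and 0.000429). Without replicate 3 of the SZT bud the fall of the sum was -4.27 (adjusted p = 3.85e-11), and those of the transcripts were -4.27, -3.53 and -2.21. In TZM, DFR fell 52.9-fold (log2 value of -5.64, SE 0.44, limma adjusted p = 2.71e-09). Here Cluster-90241.3 and Cluster-90241.5 fell, with log2 values of -5.65 and -2.34 (adjusted p = 3.07e-09 and 5.19e-05), and Cluster-90241.6, below 1 FPKM in every TZM bud, had a log2 difference of -0.57 (adjusted p = 0.239). With a pseudocount of 0.01 in place of 1, Cluster-90241.6 gave -5.57 (limma adjusted p = 0.000244), so its call depends on the pseudocount. Of all features 50.0% were called in SZT and 38.6% in TZM, with median log2 differences of -0.23 and -0.09.

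Tested directly, the fall of DFR was larger in TZM than in SZT by 2.25 on the log2 scale (limma, difference of differences -2.25, SE 0.62, 95% interval -3.55 to -0.95, adjusted p = 0.00757), with 36.4% of features called. For Cluster-90241.3 alone the difference of differences was -2.28 (adjusted p = 0.00759). Without replicate 3 of the SZT bud it was -1.37 for the sum (adjusted p = 0.00212). The 2 minor transcripts did not follow: Cluster-90241.5 gave 0.60 (adjusted p = 0.424) and Cluster-90241.6 gave 1.14 (adjusted p = 0.0849), both being below 7 FPKM in all TZM libraries. Without that SZT library these became 1.19 (adjusted p = 0.0457) and 1.64 (adjusted p = 0.00706), and with a pseudocount of 0.01 in place of 1 their sign turned (-2.02 and -1.57).

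Between MN (bud stage 3 to the red region) and SZT, the fall of DFR did not differ beyond the error, with a difference of differences of -0.90 (limma, 95% interval -2.20 to 0.40, adjusted p = 0.408, 10.9% of features called). Without replicate 3 of the SZT bud this value was -0.02 (adjusted p = 1). The size of this value therefore rested on a single library.

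**Figure D2:**
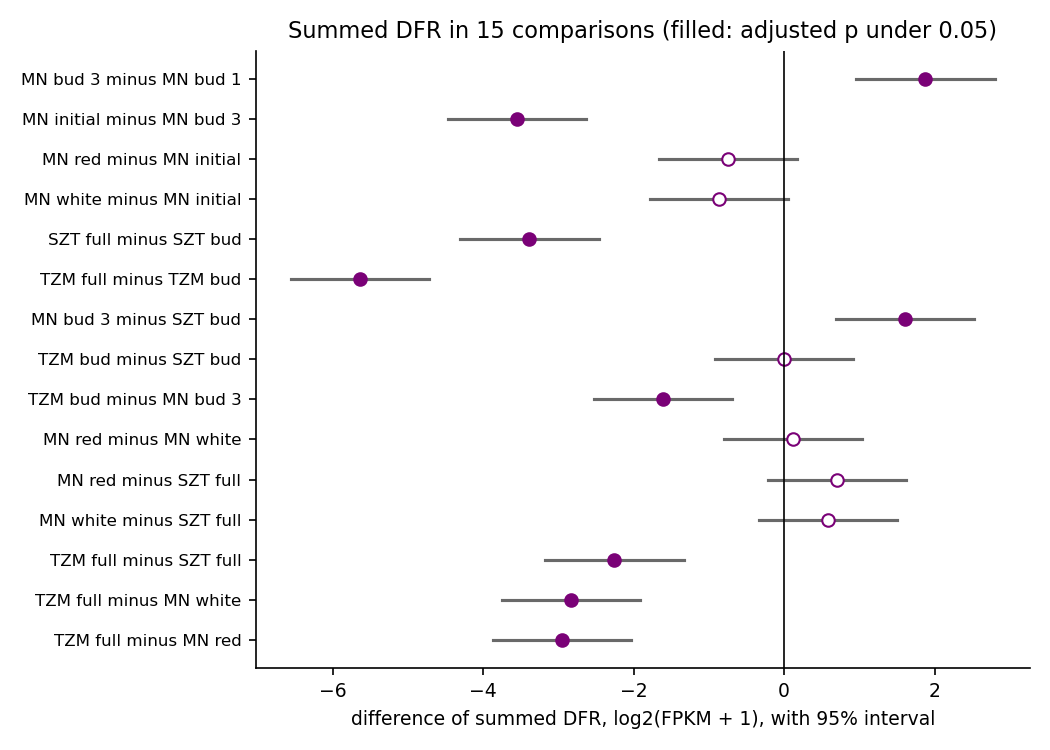
Differences of the DFR sum on log2(FPKM + 1) in 15 comparisons, as points with 95% intervals from limma, filled where the adjusted p was under 0.05. The falls after the bud stage are the largest, -5.64 for the sum in TZM against -3.38 in SZT, while the interval for MN's red against white region spans 0.

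At full bloom the study set white against red petals in 2 ways, across cultivars and within MN. Across cultivars, DFR was 4.98-fold lower in white TZM than in red SZT (6.90 to 13.7 FPKM against 45.8 to 48.8 FPKM), which was -2.26 on the log2 scale (limma, SE 0.44, 95% interval -3.17 to -1.34, adjusted p = 0.000315, 41.3% of features called). Within MN, the white and the red region overlapped (68.7 to 73.0 FPKM and 67.1 to 85.7 FPKM), and the difference, red minus white, was 0.12 (limma, 95% interval -0.80 to 1.04, adjusted p = 1). In this comparison, 0.172% of features were called, and none of the 3 DFR transcripts was. The interval within MN does not reach the difference between the cultivars.

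The difference between these 2 contrasts was tested as well, a comparison added after the values were seen. It was -2.14 for the DFR sum (limma, SE 0.62, 95% interval -3.44 to -0.84, adjusted p = 0.0132) and -2.11 for Cluster-90241.3 (adjusted p = 0.0154), with 28.8% of features called. Between TZM and SZT, flower colour and cultivar cannot be told apart.

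TZM was also lower than both regions of MN. DFR was 7.49-fold lower in TZM than in MN's white region (log2 difference -2.83, adjusted p = 3.62e-05, 34.1% of features called) and 8.18-fold lower than in the red region (-2.95, adjusted p = 2.53e-05, 31.2% called), so both white petals of the series held different levels of DFR. Cluster-90241.3 gave -2.84 and -2.96 (adjusted p = 4.04e-05 and 2.77e-05). Cluster-90241.5 was not called in either (-0.87, adjusted p = 0.0933, and -0.76, adjusted p = 0.149). With a pseudocount of 0.01 in place of 1 it was called in both (-3.55, limma adjusted p = 0.00395, and -3.32, adjusted p = 0.00721). Its calls at these low levels thus depend on the pseudocount. Against SZT its difference of -1.03 passed narrowly (adjusted p = 0.0382) and did not pass without any 1 of the 6 libraries (adjusted p = 0.0531 to 0.137). Without replicate 3 of the SZT bud, which is in none of these groups, limma called Cluster-90241.5 against SZT (adjusted p = 0.00828) and against MN's white region (0.0285). Against the red region it was still not called (0.0563).

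The red region of MN stood 1.64-fold above red SZT, with no overlap between libraries, but the log2 difference of 0.70 was not called (limma, 95% interval -0.22 to 1.62, adjusted p = 0.359, 13.6% of features called). Without replicate 3 of the SZT bud, which is in neither group, its adjusted p was 0.0281. The white region of MN stood 1.50-fold above red SZT (0.58, -0.34 to 1.50, adjusted p = 0.468, 15.0% called), and without that library its adjusted p was 0.0660. Every library of MN's white region (68.7 to 73.0 FPKM) held more DFR than every full-bloom library of SZT (45.8 to 48.8 FPKM).

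In the buds, the libraries of TZM and SZT overlapped. DFR in TZM buds (451 to 526 FPKM) lay between the libraries of the SZT bud, and the log2 difference was -0.00 (limma, 95% interval -0.91 to 0.91, adjusted p = 1, 36.4% of features called). Without replicate 3 of the SZT bud, TZM was lower by 0.89 (log2 difference -0.89, SE 0.23, adjusted p = 0.00552), so the bud comparison of the cultivars turned on that library. Cluster-90241.5 and Cluster-90241.6 were lower in TZM buds with all libraries (-1.64, adjusted p = 0.00217, and -1.43, adjusted p = 0.00339) and without that library (-2.22 and -1.92, adjusted p = 3.21e-05 and 0.00013). With a pseudocount of 0.01 in place of 1 neither was called (adjusted p = 0.135 and 0.0702).

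MN at bud stage 3 was above both other buds. It had 2.30-fold more DFR than the SZT bud (log2 difference 1.60, limma, adjusted p = 0.0446, 3.87% of features called), but this was 0.72 (adjusted p = 0.0911) without replicate 3 of the SZT bud, and it was not called without any 1 of the 3 MN libraries (adjusted p = 0.0716, 0.166 and 0.0730 without replicate 1, 2 and 3). Against the TZM bud, MN at bud stage 3 had 3.07-fold more DFR (TZM minus MN -1.61, adjusted p = 0.00571, 41.1% called), with -1.58 for Cluster-90241.3 and -2.76 for Cluster-90241.5 (adjusted p = 0.0071 and 7.88e-06). Cluster-90241.6 gave -2.44 against the group through which it passed the filter (adjusted p = 1.31e-05). Whether the bud stages of the 3 cultivars match in age is not given by the labels.

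The make-up of the DFR signal was compared next. Cluster-90241.3 made up 98.9% ± 0.218 (SD, n = 3) of the sum in TZM buds and 95.7% ± 1.41 in SZT buds. Cluster-90241.6 made up 0.0985% ± 0.0400 of the sum in TZM buds, against 0.592% ± 0.234 in SZT buds, and 0 against 0.511% ± 0.558 at full bloom. In the buds the shares did not overlap. At full bloom a share of 0 in TZM cannot be read, since 0.511% of the DFR sum there would be no more than 0.07 FPKM, the lowest level above 0 at which this transcript was listed. The exact two-sided permutation test within stage over 400 regroupings gave a difference of -0.50 percentage points over both stages (p = 0.005, the smallest this test can give, adjusted p = 0.015 over the 3 transcripts), but it includes that full-bloom share, and no difference is read from it. The shares of Cluster-90241.3 (2.23 points higher in TZM, exact permutation p = 0.075, adjusted 0.112) and Cluster-90241.5 (1.73 points lower, exact permutation p = 0.13, adjusted 0.13) did not pass. Without replicate 1 or replicate 3 of TZM at full bloom the share of Cluster-90241.6 had an adjusted p of 0.0600 by the exact test.

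The cluster number held 7 transcripts, of which 4 are not named in the table. Of these only Cluster-90241.0 passed the filter. It was the sole transcript of the number that was highest in TZM buds, at 8.35, 8.72 and 8.3 FPKM, against 4.19, 4.78 and 0 FPKM in SZT buds and 5.17, 5.32 and 5.44 FPKM in MN at bud stage 3. TZM buds were above SZT buds by a log2 value of 1.61 (limma adjusted p = 0.00603), or 0.79 (adjusted p = 0.0328) without replicate 3 of the SZT bud, and did not differ from MN at bud stage 3 beyond the error (0.58, adjusted p = 0.312). At full bloom it lay between 0 and 0.23 FPKM in every group. Cluster-90241.1 was seen only in MN at bud stage 3 (2.17, 5.5 and 3.62 FPKM) and in SZT buds (2.69, 0.65 and 0.51 FPKM), and Cluster-90241.2 and Cluster-90241.4 reached at most 0.66 and 1.15 FPKM. The unnamed transcripts together held at most 3.23% of the FPKM under the number in any library, so the sum differs little with them.

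**Figure D3:**
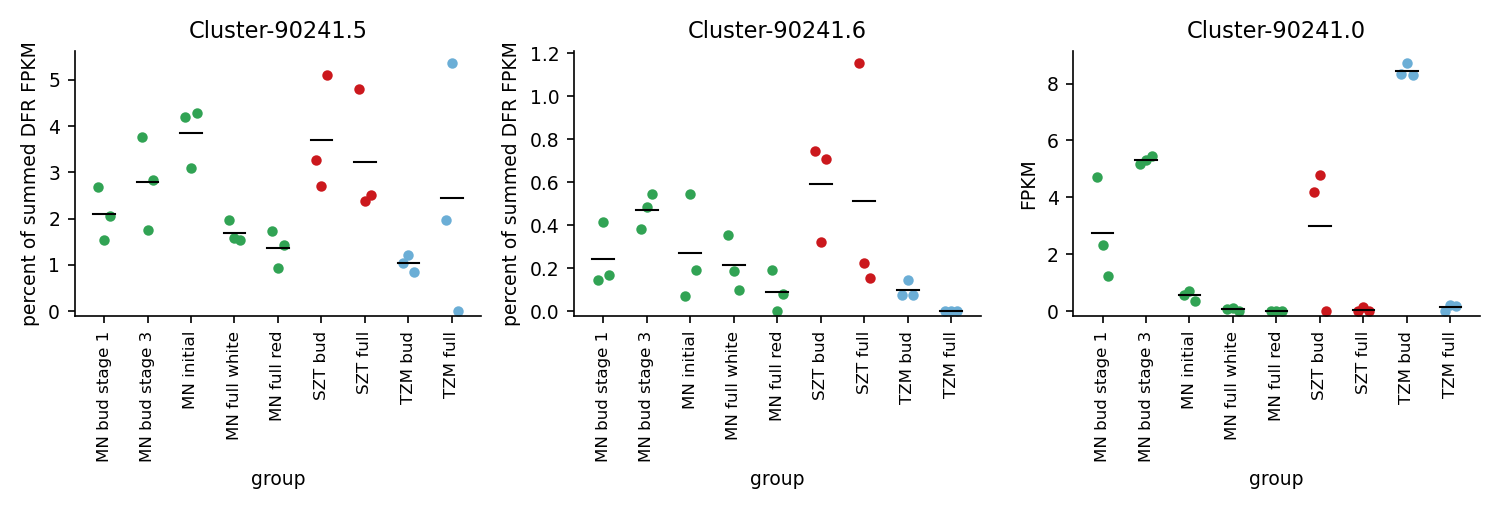
Percent of the summed DFR FPKM held by Cluster-90241.5 and by Cluster-90241.6, and FPKM of the unnamed Cluster-90241.0, by group with 1 point per library and a line at the mean. The share of Cluster-90241.6 averages 0.0985% in TZM buds against 0.592% in SZT buds, whereas Cluster-90241.0 is highest in TZM buds (8.3 to 8.72 FPKM).

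The other enzymes of the pathway were taken from the same table, 17 transcripts in all (6 of CHS, 6 of F3H, 3 of ANS and 2 of ANR), and all of them passed the filter. The 6 of CHS carry the same cluster number, as do the 3 of ANS and the 2 of ANR, and those of F3H share numbers too. Reads can be shared within a number, so the transcripts counted below are not independent members. Cluster-72978.7 of CHS passed the filter only through MN at bud stage 3 (mean 6.52 FPKM). Cluster-21086.3 of ANS passed it only through the SZT bud (mean 8.51 FPKM). The filter thus favoured their differences from those groups, which the counts below include. Between bud stage 3 and initial flowering of MN, 13 of the 17 fell and none rose, with a median log2 difference of -2.91, where 36.8% of all features were called. From bud to full bloom, 15 of the 17 fell in SZT (median -3.95, 50.0% of features called) and 13 fell in TZM (median -5.19, 38.6% called), where the 2 ANR transcripts rose. From bud stage 1 to bud stage 3 of MN 4 rose (3.97% of features called), or 7 without replicate 3 of the SZT bud and 2 without replicate 1 of bud stage 1 or replicate 3 of bud stage 3. Between initial flowering and the red region of MN 10 fell and both ANR transcripts rose (30.2% called). The ANR rises were uneven between libraries, with a summed level of 6.79, 63.7 and 5.95 FPKM in the red region. In TZM at full bloom this sum was 7.96, 69.5 and 56.2 FPKM. In TZM against SZT at full bloom 1 was higher and 7 were lower, 47.1% of the 17 beside 41.3% of all features, so this count was near the background. In MN's red against white region, where 0.172% of features were called, 3 of the 17 were higher in the red region, all of CHS, and no DFR transcript was called. This count was 1 without any single library of the white region or without replicate 1 of the red region.

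The level of DFR was then set beside that of the other enzymes. The ratio of summed DFR to summed CHS FPKM was 4.21, 2.62 and 2.41 in MN's white region, against 0.416, 0.631 and 0.525 in the red region. In SZT at full bloom it was 0.175, 0.247 and 0.209, in TZM at full bloom 0.255, 0.247 and 0.177, and in the 15 libraries of the buds and of the initial flowering stage 0.0372 to 0.226. The white region of MN was the only group in which DFR exceeded CHS. There CHS stood at 17.3, 26.3 and 28.9 FPKM against 188, 106 and 163 FPKM in the red region, which was 2.60 higher in the red region on the log2 scale by limma (SE 0.29, adjusted p = 9.17e-05).

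Against F3H, the step that supplies its substrates, DFR stood at 0.774, 0.895 and 0.776 in MN's white region, 1.12, 1.14 and 1.73 in MN's red region, 0.473, 0.621 and 0.636 in SZT at full bloom and 0.486, 0.186 and 0.203 in TZM at full bloom. Against ANS, the step after it, the ratio was above 1 in every full-bloom library, with 9.68, 6.04 and 2.49 in the white and 2.69, 4.98 and 4.90 in the red region of MN, 2.85, 1.80 and 1.35 in SZT and 4.09, 2.17 and 3.53 in TZM. In the buds it was 0.232 to 1.09, and at the initial flowering stage 0.306, 0.400 and 0.328. DFR was lower than ANS in all but 1 of the libraries before full bloom. From TZM bud to full bloom, DFR fell 52.9-fold, F3H 77.5-fold, CHS 150-fold and ANS 685-fold in mean FPKM, so the mean ratio to ANS was higher at full bloom (3.26) than in the bud (0.253).

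**Figure D4:**
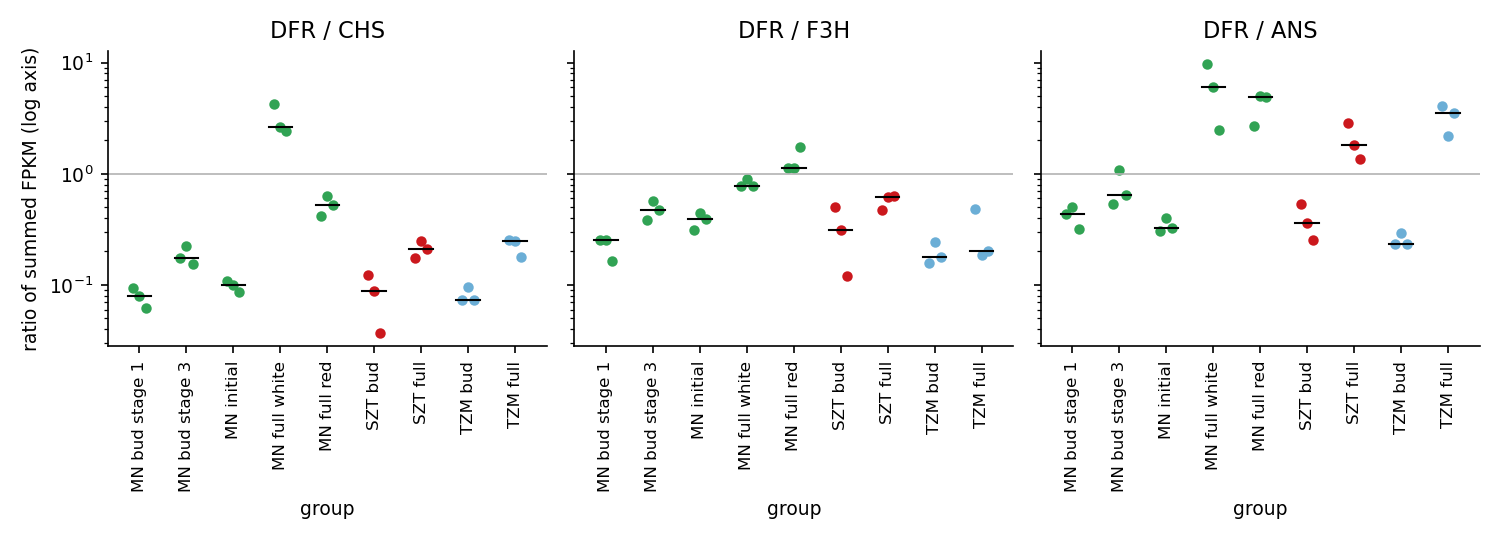
Ratio of summed DFR FPKM to the summed FPKM of CHS, F3H and ANS by group on log axes, with 1 point per library and a line at the median. The ratio to CHS is highest in MN's white region (2.41 to 4.21), and the ratio to ANS is above 1 in all full-bloom libraries.

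White against red petals at full bloom were also compared over both contrasts together, with labels exchanged only within TZM and SZT and within MN, in an exact two-sided permutation test for the sum and the 3 ratios (4 values, adjusted over them). Averaged over both contrasts, DFR was lower in white petals by 1.19 on the log2 scale (exact p = 0.02, adjusted 0.0267). This was -2.26 between TZM and SZT but -0.12 in MN (exact p = 0.4), whose regions overlapped, so no difference common to white petals is read from it. The average for DFR over CHS was higher in white petals by 1.34 (exact p = 0.02, adjusted 0.0267). It was 2.48 in MN but 0.20 between TZM and SZT (exact p = 0.4), whose ratios overlapped, so it too rests on 1 contrast. DFR over F3H had a lower mean in white petals in both contrasts (mean -0.84, exact p = 0.01, adjusted 0.0267). It was -1.01 between TZM and SZT (exact p = 0.2), whose ratios overlapped, and -0.67 in MN (exact p = 0.1), whose ratios did not. So its libraries were separate in 1 contrast only, and no difference common to white petals is read from it. DFR over ANS did not pass (0.41, exact p = 0.255). Within 1 contrast of 3 against 3 libraries, the exact test cannot go below p = 0.1. Each of the 3 called values was lost without at least 1 library, namely the sum without replicate 3 of MN's red region (adjusted p = 0.0533) or replicate 3 of SZT (0.05), DFR over CHS without replicate 3 of SZT (0.05), and DFR over F3H without replicate 2 (0.0533) or 3 (0.0600) of SZT, all by the exact test. DFR over ANS passed without replicate 3 of MN's white region (0.66, adjusted p = 0.0400 by the exact test).

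The transcripts most like DFR across the series were sought by Pearson's r with the DFR sum over the 27 libraries on log2(FPKM + 1), as a description, since libraries of 1 group share their condition. The 5 most alike outside the cluster number were Cluster-57936.5 (r = 0.975), Cluster-15431.5 (0.960), Cluster-71216.12 (0.957), Cluster-91130.2 (0.952) and Cluster-16425.3 (0.943), none of which the table names. The median r over the 55095 other tested transcripts was 0.115, and 59 exceeded 0.9. Like DFR, Cluster-57936.5 was highest in MN at bud stage 3 and lowest in TZM at full bloom, with means of 484 and 5.93 FPKM. The closest named enzyme transcripts were Cluster-88339.5 of F3H (r = 0.937, rank 7) and Cluster-21086.8 of ANS (0.928, rank 9). The sums of F3H, ANS and CHS gave r of 0.928, 0.928 and 0.879, and ANR gave -0.658.

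The table pairs 9 transcription factors with each of the 3 DFR transcripts, having chosen them by correlation on these samples. Here their r with the DFR sum ran from 0.787 (TCP) to 0.896 (C2H2_1), with a median of 0.863, and MYB_8, of the family that includes known activators of DFR in other plants, stood at 0.863. On the means of the 9 groups the same 9 gave 0.907 to 0.972. All of these correlations span both buds and opened flowers.

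Within groups the DFR transcripts moved together less clearly. Deviations from the group means of Cluster-90241.3 and Cluster-90241.5 correlated at r = 0.756 over the 27 libraries, and at 0.388 over the 24 libraries without the SZT buds. For Cluster-90241.3 and Cluster-90241.6 the values were 0.665 and 0.080. The shared deviation within groups thus rested largely on the SZT buds.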

How the data were processed

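Petal RNA of 27 libraries in 9 groups of 3 was sequenced by the authors, and the deposited values are FPKM per assembled transcript. Reads were trimmed with Trimmomatic 0.36 per the submitters' processing notes. The quantifying tool and how cluster numbers were assigned were not given in the sources used here. Read depth could not be recovered from the FPKM (the most common ratio of low values held 4.39% to 13.3% of low transcripts), so no count model was run.

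Groups came from the labels. DFR, CHS, F3H, ANS and ANR names came from the study's supplementary table, whose values were not used. limma 3.58.1 in R 4.3.3 was fitted on log2(FPKM + 1) with 1 mean per group over all libraries and a trend on mean expression, for transcripts with a mean of at least 5 FPKM in at least 1 group. P-values were adjusted by the Benjamini-Hochberg method within each comparison. Comparisons share groups and are not independent. Shares and ratios were tested with exact permutation tests. The fit was tested on simulated data. Named transcripts were the 3 DFR transcripts, others under their cluster number, the other enzymes, the factors paired with DFR and the 5 with the highest r. Members and lists were chosen with earlier results of these data known. Alternatives were the pseudocount, the filter, the scaling, the trend, each comparison's own libraries, a replicate block, a stricter call (adjusted p under 0.001 and a log2 difference of at least 1), other sums over the cluster number, and leaving out each library. The added comparison of colour differences and the fit without an SZT bud library were chosen after seeing the data.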

Additional observations from a re-analysis of the deposited data

Results flagged for a closer look

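The change with stage differed between cultivars: the change of DFR from bud to full bloom in TZM minus that in SZT was -2.25 for the sum and -2.28 for Cluster-90241.3 on the log2 scale by limma (adjusted p = 0.00757 and 0.00759). In that comparison, 36.4% of features were called. The difference between white TZM and red SZT at full bloom was unlike that between the regions of MN, with a difference of differences of -2.14 for the sum and -2.11 for Cluster-90241.3 by limma (adjusted p = 0.0132 and 0.0154). Here 28.8% of features were called, and the comparison was added after the values were seen. Between TZM and SZT, colour and cultivar cannot be told apart, so this is not read as an effect of colour.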

How the results depend on the processing

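For the DFR sum, the falls from MN bud stage 3 to initial flowering and from bud to full bloom in SZT and TZM, and the lower level of TZM at full bloom against SZT and both regions of MN, kept their call under all alternatives run. For the DFR sum, 185 of the results under other settings than leaving out a library kept direction and call, 12 lost it, 4 gained it and 4 reversed. Leaving out single libraries gave 153, 6, 4 and 3. Both tallies include the count of neighbouring pairs that differed, which has no direction and was taken as kept when near its main value. That count ran from 2 to 4 when single libraries were left out. The cause of the changes below was not tested, except that a comparison's own libraries leave out the other groups' spread. TZM minus SZT in buds was 0.14 with median-ratio scaling, 0.056 with equal totals, 0.010 for the whole cluster number and 0.042 for Cluster-90241.3 alone, all with limma adjusted p near 1. MN bud stage 3 minus the SZT bud was not called at 1.61 with a pseudocount of 0.01 (0.0626) or median-ratio scaling (0.0528), 1.54 with equal totals (0.0663), and 1.60 without a filter (0.0664), without a trend (0.0527) or on its own libraries (0.371). On their own libraries, -0.74 and -0.86 for MN's red and white region minus the initial flowering stage (limma adjusted p = 0.0173 and 0.00739) and 0.70 and 0.58 for these regions minus SZT (0.0410 and 0.0411) were called, and the stage difference of -2.25 was not (0.0586). Under the strict rule 1.88 (bud stage 3 minus 1), 1.60 (MN minus SZT bud), -1.61 (TZM bud minus MN bud stage 3), -2.25 (stage) and -2.14 (colour) were not called. With a pseudocount of 0.01 the stage difference was -2.02 for Cluster-90241.5 and -1.57 for Cluster-90241.6. Of the 17 other enzyme transcripts, the 4 called between bud stages became 1 with that pseudocount, 2 with a filter of 10 FPKM and 0 under the strict rule. The 3 called between MN's regions became 0 on their own libraries and 1 under the strict rule, and the 8 between TZM and SZT at full bloom became 5 under it. Of the 5 transcripts most like DFR, 1 stayed among the 5 on group means with a pseudocount of 0.01.

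Leaving out single libraries, the DFR sum ranged from 1.71 to 2.07 for bud stage 3 minus 1, 0.72 to 2.12 for MN bud stage 3 minus the SZT bud, -0.89 to 0.51 for TZM minus SZT in buds (Cluster-90241.3 -0.85 to 0.56), -0.87 to -0.62 and -0.99 to -0.74 for MN's red and white region minus the initial flowering stage, and 0.62 to 0.79 for MN's red region minus SZT. Cluster-90241.3 ranged from -1.40 to 0.0097 for the stage change of MN minus SZT, Cluster-90241.5 from -0.21 to 0.065 for MN's red minus white region and -0.26 to 0.026 for the white region minus SZT, and Cluster-90241.6 from -0.18 to 0.078 for the latter. Called enzyme transcripts ranged from 2 to 7 between bud stages and 1 to 4 between MN's regions. The colour values ranged from -1.32 to -1.10 for the sum, 1.22 to 1.42 over CHS, -1.05 to -0.73 over F3H and 0.21 to 0.66 over ANS. The share differences ranged from 1.62 to 2.96, -2.45 to -1.11 and -0.59 to -0.34 percentage points for Cluster-90241.3, Cluster-90241.5 and Cluster-90241.6, and those of the first pair passed without replicate 2 of TZM at full bloom (exact permutation adjusted p = 0.0150).

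Same-numbered libraries did not clearly deviate together (r of -0.22 to 0.15, with all 3 over 0.1 in 0 of 15 comparisons), so no pairing by number was seen. This check cannot exclude pairing, and the labels do not say whether libraries shared a plant or flower. With a replicate block, 79 of 80 results, called or not, kept their direction and call, or for counts stayed near the main value. The other was Cluster-90241.5 in TZM against MN's white region, which became called (-0.87, limma adjusted p = 0.0483).

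Precision was limited by 3 libraries per group, by an unknown read depth and by the SZT bud library that widened the shared error. Some calls of the minor transcripts depend on the pseudocount, among them those between TZM and SZT buds and those of TZM against MN at full bloom.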
